A study of Homo sapiens with 8 samples.

Results

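The sarcomere genes are 47 genes, of 60234 in the deposited table, of the contractile unit of striated muscle. They were chosen by gene symbol from a list drawn up with earlier results of these data known. Their shares beside those of all genes are therefore a description and not independent support. Each symbol stood on 1 row. They comprise 15 genes of the thick filament, 15 of the thin filament, 9 of the Z-disc, 3 of the M-band, titin, and 4 genes for assembly factors and muscle creatine kinase. In the sarcomere, myosin heads of the thick filament pull on the actin of the thin filament. Troponin and tropomyosin let this happen only when calcium binds, and the Z-disc and M-band anchor the filaments. Developing muscle first uses embryonic isoforms of these proteins and later replaces them with slow or fast ones. Rhabdomyosarcoma is a soft-tissue tumour of cells that start this muscle programme and do not complete it.

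The 8 RNA libraries come from Rh41, a human alveolar rhabdomyosarcoma cell line with the PAX3-FOXO1 fusion. The 4 control libraries are labelled only as control for the knockdown. In the 4 siG9a libraries, G9a was knocked down. G9a is the histone H3 lysine 9 methyltransferase encoded by EHMT2. The sample labels name siG9a and the series title names shG9a, and neither gives a time or the nature of the control. The submitters call the 4 libraries of each group biological replicates, and all are of 1 line. Values are CPM, the reads of a gene scaled to a common library total. The libraries are 3′ tag libraries, so a gene gives about 1 read per transcript end whatever its length, and splice forms that share a 3′ end cannot be told apart.

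Libraries held between 1458825 and 1938665 reads, so 1 read was worth between 0.516 and 0.685 CPM, and a count of 0 allows up to between 1.55 and 2.06 CPM (3 reads; counting error only). EHMT2, the targeted gene, measured 57.6, 68.1, 87.3 and 88.3 CPM in control replicates 1 to 4 and 19.6, 35.1, 33.1 and 58.5 CPM in siG9a, which was 34.0%, 51.6%, 37.9% and 66.3% of the same-numbered control. The symbol EHMT2 stood on 7 rows, and the values are those of the row with the highest mean. The groups overlapped, since siG9a replicate 4 lay above control replicate 1. The log2 change was −1.10 ± 0.19 (SE of the paired fit, 0.31 unpaired, n = 4 each). The limma adjusted p was 0.000472 paired and 0.191 unpaired, where paired means that the replicate number is a block in the fit. Both replicate 3 libraries stood apart. Muscle and rhabdomyosarcoma marker genes summed to 1784, 1612, 273 and 1769 CPM in control and 1220.4, 902, 235 and 1307 CPM in siG9a. Of the 10 markers, 8 were tested, CHRNG was under 1 CPM on average and MYMK was not matched. A list of 8 neural marker genes moved the other way with the replicate number, summing to 186, 1826, 9614 and 2045 CPM in control and 219.8, 2954, 8929.97 and 1909.8 CPM in siG9a. Nearly all of this came from NEFM and NEFL, while NEFH, STMN2, ELAVL4 and SNAP25 were each under 1 CPM on average. It was low in both replicate 1 libraries and high in both replicate 3 libraries, and its part in the sarcomere values was not tested.

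With G9a knockdown, 11 of the 32 sarcomere transcripts abundant enough to test were called lower in a paired comparison and 0 higher, beside 6.52% and 4.86% of all genes. The unpaired limma comparison called 0 of 32 at an adjusted p under 0.05, 10 being at an unadjusted p under 0.05. Transcripts of the embryonic light chain MYL4, the myosin-binding protein MYBPH, the troponins TNNI1, TNNI2 and TNNT2 and the cardiac actin ACTC1 fell in the paired fit (defined below), each to under 65% of control in every pair. Those of TNNT1, TPM2, NEB and TTN, which are among the most abundant of the list, did not pass the test. The 47 genes together held 7525, 6687, 1749 and 6802 CPM in control replicates 1 to 4 and 4838, 4433, 1717 and 4750.4 CPM in siG9a. The replicate 3 libraries were lowest in both groups and nearly equal to each other, and the other 3 siG9a libraries lay between 64.3% and 69.8% of their control. TNNT1 alone supplied between 38.6% and 46.5% of this sum in control and between 48.7% and 54.3% in siG9a.

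**Figure D1:**
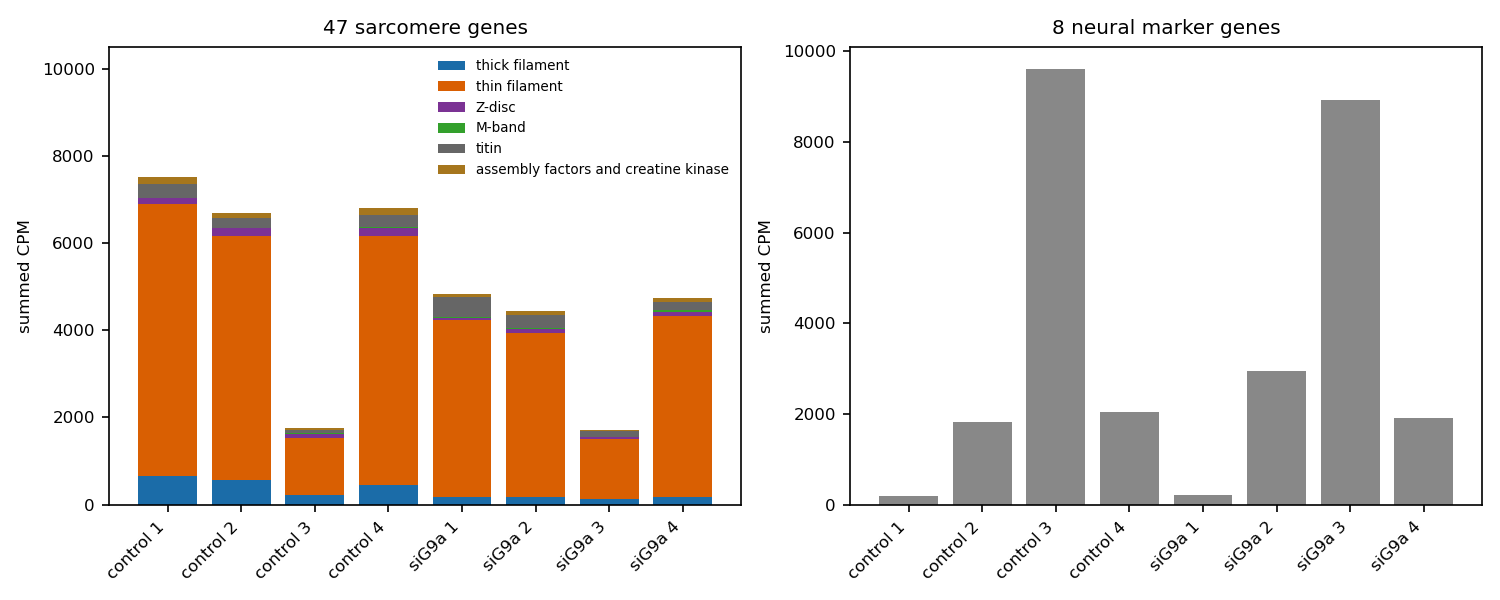
Summed CPM per library of the 47 sarcomere genes, stacked by filament class (left), and of the 8 neural marker genes (right), in control and siG9a replicates 1 to 4. The sarcomere sum is lowest in the replicate 3 library of each group, where the neural marker sum is highest.

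Of the 47 genes, 32 had a mean of at least 1 CPM over the 8 libraries and were tested across the whole table of 15092 genes by limma on log2(CPM + 1). Of these 32, MYH7B and TNNC1 were under 1 CPM on average in siG9a, and SMYD1 in control. Without a block, limma called 0 of 32 at an adjusted p under 0.05, where 0.0% of all genes were called lower. At an unadjusted p under 0.05 there were 10 genes, 9 lower and 1 higher, and 6.38% of all genes were lower and 6.08% higher at that level. Also without a block, edgeR called 0 of 32, and DESeq2 called 7 of 32 lower, beside 1.28% of all genes lower and 0.649% higher. The deviations of same-numbered libraries from their group means correlated, strongly for numbers 1 and 3 and weakly for 2 and 4, so each result is given unpaired and paired, the paired fit having the replicate number as a block. Below, a gene is said to have fallen or risen where its paired adjusted p was under 0.05. Each SE printed with a log2 change is from the paired fit alone. The unpaired SE differs from it by gene, at 0.90 for ACTC1 (0.15 paired) and 0.352 for MYH3 (0.346 paired). In the paired fit, 11 of 32 genes fell (34.4%) and 0 rose. Across all genes tested, 6.52% were called lower and 4.86% higher. With the block, edgeR called 11 of 32 lower (6.59% of all genes lower, 4.75% higher) and DESeq2 9 (4.19% lower, 2.23% higher). DESeq2 with the block gave no adjusted p to some low genes, among them MYH3, MYBPC2, TNNI2 and SMYD1. These are counted as not called, as is SMYD1 in DESeq2 without the block. The same 11 genes fell with pair 3 left out, where 4.59% of all genes were called lower and 2.56% higher. Unpaired and without both replicate 3 libraries, 8 of them were called (all but MYBPC2, TNNI2 and KLHL41), beside 1.95% of all genes lower and 0.782% higher. Unpaired and without control replicate 3 alone, 6 were called, beside 1.44% and 0.55%. The median log2 change was −0.61 for the 32 genes and 0.01 for all genes tested. All 4 siG9a values lay below all 4 control values for 8 of 32 genes (25.0%), against 3.45% of all genes, and above them for 1 gene, against 3.88%. A total of 15 genes (46.9%) were lower in 4 of 4 pairs, against 15.3% of all genes.

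**Figure D2:**
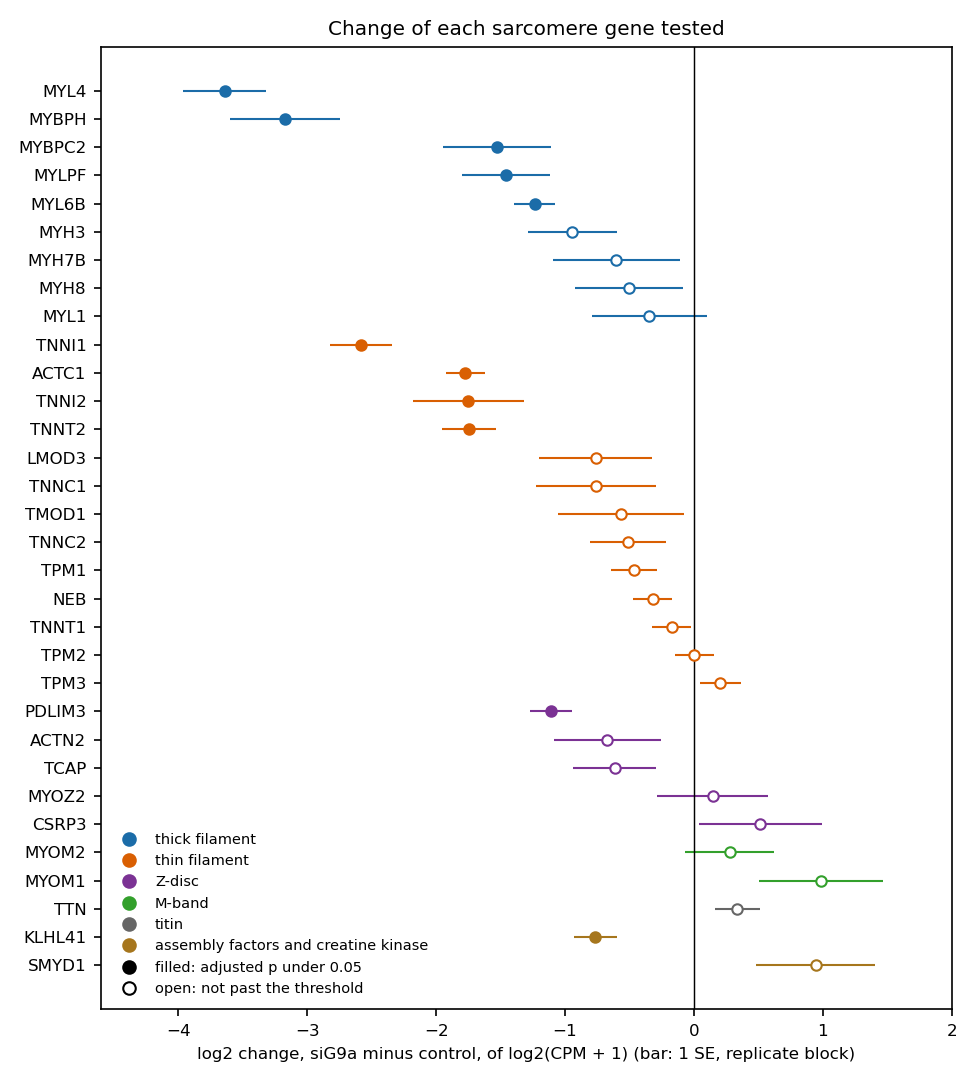
Log2 change (siG9a minus control, on the log2(CPM + 1) scale) of the 32 sarcomere genes tested, coloured by class, with bars of 1 SE from the fit with the replicate block. Filled points mark the 11 genes that fell. Each of them lies left of 0, and the TPM2 point lies at 0.

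Promoter windows are shown for the 4 genes that fell whose window holds a motif marked below, and for TNNT1, which did not pass the test. Each is the window from 250 bases before to 50 after a RefSeq start (build GRCh38.p14), read 5′ to 3′ along the gene. Of the 47 genes, 31 had an entry, among them 6 of the 11 that fell. The other 2 of these 6, MYL6B and PDLIM3, hold none of the 4 marked motifs. MYL4, MYLPF, MYBPC2, TNNI1 and TNNI2 also fell and had no entry. ACTC1 has 3 listed starts and the most upstream is shown. Capitals mark the E-box CAGCTG that MYOD prefers, the MEF2 site, the CArG box bound by SRF, and TATAAA, each searched on both strands.
ACTC1 (chr15:34795500-34795799, minus strand): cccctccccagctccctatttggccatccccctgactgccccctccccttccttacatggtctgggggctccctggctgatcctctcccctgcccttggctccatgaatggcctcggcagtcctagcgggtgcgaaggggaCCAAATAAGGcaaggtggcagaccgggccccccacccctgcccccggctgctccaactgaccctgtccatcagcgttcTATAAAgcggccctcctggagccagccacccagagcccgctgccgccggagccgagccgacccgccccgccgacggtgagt
TNNT2 (chr1:201377631-201377930, minus strand): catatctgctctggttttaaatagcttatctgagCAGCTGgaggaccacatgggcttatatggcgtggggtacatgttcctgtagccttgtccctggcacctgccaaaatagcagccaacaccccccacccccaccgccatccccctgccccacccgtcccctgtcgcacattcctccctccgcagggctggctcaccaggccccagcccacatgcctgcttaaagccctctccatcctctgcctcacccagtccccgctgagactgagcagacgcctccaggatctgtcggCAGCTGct
MYBPH (chr1:203175777-203176076, minus strand): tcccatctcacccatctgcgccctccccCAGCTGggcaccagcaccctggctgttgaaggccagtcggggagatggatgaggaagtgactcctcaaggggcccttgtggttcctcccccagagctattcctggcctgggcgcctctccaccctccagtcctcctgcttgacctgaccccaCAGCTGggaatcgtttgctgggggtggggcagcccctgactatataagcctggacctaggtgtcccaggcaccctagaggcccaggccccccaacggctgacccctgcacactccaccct
KLHL41 (chr2:169509452-169509751, plus strand): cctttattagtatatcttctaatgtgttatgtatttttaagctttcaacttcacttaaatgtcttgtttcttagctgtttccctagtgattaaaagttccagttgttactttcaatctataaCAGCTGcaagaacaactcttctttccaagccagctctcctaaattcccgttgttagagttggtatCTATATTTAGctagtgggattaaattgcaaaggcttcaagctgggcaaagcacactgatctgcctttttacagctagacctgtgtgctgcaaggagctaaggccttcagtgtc
TNNT1 (chr19:55149157-55149456, minus strand): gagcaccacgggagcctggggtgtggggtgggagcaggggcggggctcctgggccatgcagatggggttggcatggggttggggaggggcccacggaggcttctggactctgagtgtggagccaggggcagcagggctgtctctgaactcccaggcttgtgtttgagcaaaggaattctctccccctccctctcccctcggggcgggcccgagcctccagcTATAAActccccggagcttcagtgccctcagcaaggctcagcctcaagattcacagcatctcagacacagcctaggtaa
The ACTC1 window holds a CArG box at −109 and TATAAA at −31, counted from the start site at +1. In KLHL41 a CAGCTG stands at −128 and a MEF2 site at −63. MYBPH holds CAGCTG at −222 and −70, TNNT2 at −216 and +43, and TNNT1 holds TATAAA at −29. CAGCTG was found in 13 of 31 sarcomere genes in at least 1 window, against 21.14% of 27305 genes in the table. It was in 4 of the 6 genes that fell and in 4 of the 14 tested genes that did not pass. In ACTC1, counted here, it stands at +28 of another listed start and not in the window shown. A MEF2 site was found in 9 of 31 genes against 3.67% of all, a CArG box in 4 against 1.60%, and TATAAA in 11 against 13.99%. Of the 6 genes that fell, 1 held a MEF2 site and 1 a CArG box, and of the 14 that did not pass, 4 and 1 did. The looser CANNTG, which includes CAGCTG, was in 27 of 31 genes and 73.07% of all, and CATTCC, the M-CAT element, in 8 of 31 and 16.73%. These matches describe the letters of the windows, and the start sites used in Rh41 were not measured.

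Thick filament genes made up 5 of the 11 genes that fell. Of the 15, 9 were tested and 55.6% of these fell, beside 6.52% of all genes called lower. All 9 had a negative log2 change, and their median was −1.24. MYL4 (ENSG00000198336), the essential light chain of embryonic muscle and of the atrium, measured 77.5, 57.1, 11.1 and 56.1 CPM in control replicates 1 to 4 and 2.58, 2.42, 0.570 and 5.74 CPM in siG9a. Its groups did not overlap, and the siG9a libraries were at 3.33%, 4.24%, 5.15% and 10.2% of their control. The siG9a values rest on 5, 4, 1 and 10 reads (95% Wilson interval 0.101 to 3.23 CPM for the 1 read of replicate 3). The log2 change was −3.64 ± 0.32 (SE), at limma adjusted p-values of 5.41e-08 paired and 0.0709 unpaired. MYBPH (ENSG00000133055), a myosin-binding protein related to MYBPC, measured 26.1, 27.3, 8.61 and 21.3 CPM in control replicates 1 to 4 and 0.520, 6.66, 1.14 and 0 CPM in siG9a. Its groups did not overlap either. Its siG9a replicate 4 held 0 reads, which allows up to 1.72 CPM by the 3-read limit and 2.20 CPM by the 95% Wilson interval. The log2 change was −3.17 ± 0.42 (SE), at limma adjusted p-values of 2.25e-05 paired and 0.0916 unpaired.

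MYL6B (ENSG00000196465), a slow-muscle and non-muscle essential light chain and the most abundant thick filament transcript, measured 477, 414, 166 and 316 CPM in control replicates 1 to 4 and 155, 142, 107 and 141 CPM in siG9a. Every siG9a value was below every control value, although the control library of replicate 3 lay close to the highest siG9a library. Its log2 change was −1.24 ± 0.16 (SE), at limma adjusted p-values of 1.40e-05 paired and 0.131 unpaired. The neighbouring MYL6 shares exons with MYL6B on the same strand in GENCODE 29, so reads of these 2 genes may be uncertain. MYL6 itself measured 461, 419, 275 and 496 CPM in control replicates 1 to 4 and 635, 405, 309 and 518 CPM in siG9a and did not pass the test (adjusted p = 0.509 with the block). MYLPF (ENSG00000180209), the regulatory light chain of fast muscle, measured 46.6, 22.5, 11.1 and 13.0 CPM in control replicates 1 to 4 and 5.16, 8.47, 5.71 and 7.46 CPM in siG9a. Its groups did not overlap, and control replicate 1 was the highest. The log2 change was −1.46 ± 0.34 (SE), at limma adjusted p-values of 0.00571 paired and 0.209 unpaired. MYBPC2 (ENSG00000086967), the fast myosin-binding protein C, measured 15.8, 11.6, 1.84 and 10.4 CPM in control replicates 1 to 4 and 2.06, 10.9, 0 and 1.72 CPM in siG9a. Here the groups overlapped and pair 2 hardly differed. Its log2 change was −1.53 ± 0.42 (SE), at limma adjusted p-values of 0.0182 paired and 0.420 unpaired. The calls of MYLPF and MYBPC2 were lost with pair 1 left out, and that of MYBPC2 also with pair 4 left out, where its limma adjusted p was 0.0956. Without pair 1, 3 thick filament genes were called.

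Myosin heavy chains are the motors of the thick filament, and those among the 47 genes had low levels. MYH3 (ENSG00000109063), the embryonic heavy chain, measured 10.97, 10.9, 6.15 and 12.5 CPM in control replicates 1 to 4 and 3.61, 5.45, 4.00 and 5.74 CPM in siG9a. Its groups did not overlap, but with the block its adjusted p was 0.0785 and it did not pass (log2 change −0.94 ± 0.35 (SE)). The perinatal chain MYH8 had means of 4.52 CPM in control and 3.27 CPM in siG9a, and MYH7B, a slow-type chain, 1.91 and 0.575 CPM. The fast light chain MYL1 had means of 3.05 and 2.37 CPM. None of these 3 passed the test. MYH13, a heavy chain outside the 47, had means of 16.2 CPM in control and 17.1 CPM in siG9a and did not pass either. The adult fast chains MYH1 and MYH2, the slow chain MYH7, the slow and ventricular light chains MYL2 and MYL3, and MYBPC1 were under the 1 CPM filter, and MYH1 and MYL2 were at 0 in all 8 libraries.

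**Figure D3:**
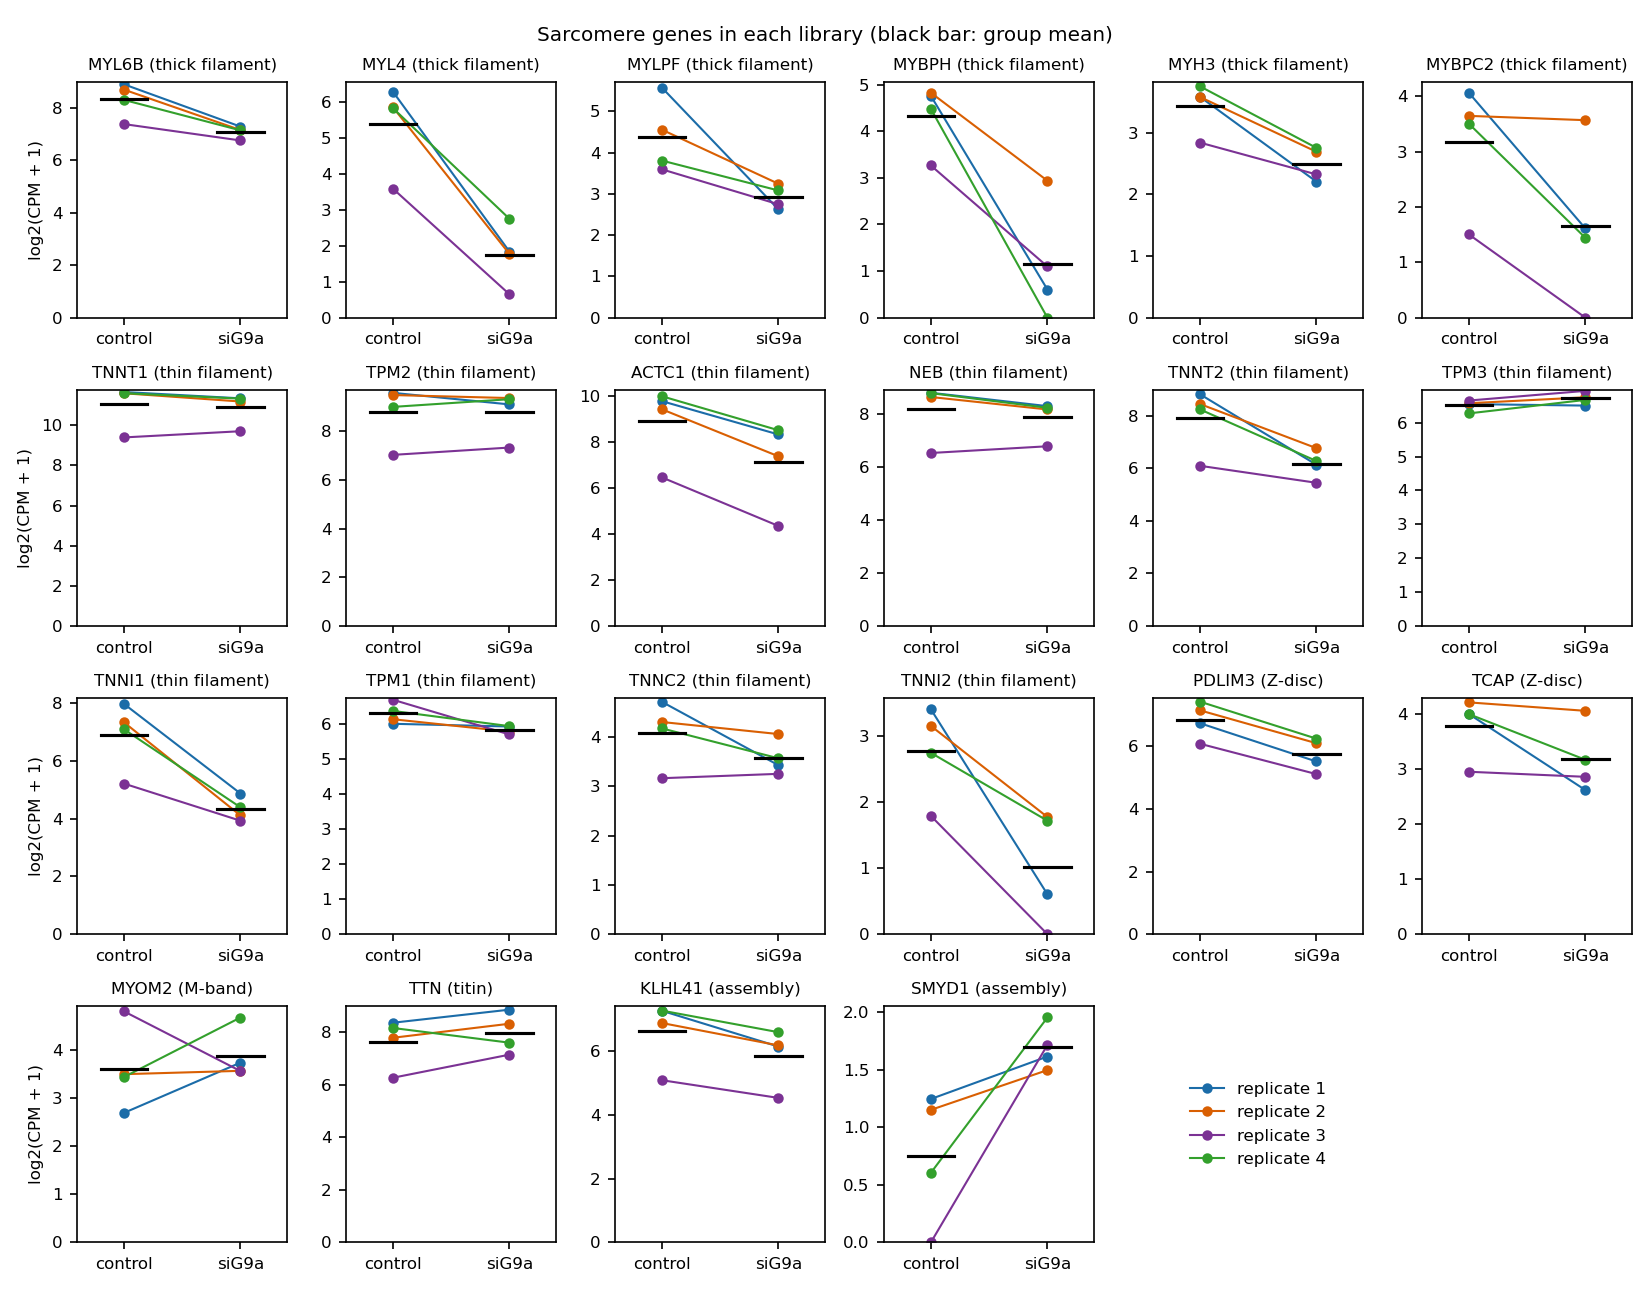
Levels of 22 sarcomere genes on the log2(CPM + 1) scale in each library. Lines join libraries with the same replicate number, colours mark that number and black bars are group means. MYL4, MYBPH and TNNI1 are lower in each pair, TNNT1, TPM2 and NEB are low in both replicate 3 libraries, and TTN and SMYD1 lie at or above control in most pairs.

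In the thin filament, 13 of 15 genes were tested and 4 fell (30.8%, beside 6.52% of all genes called lower). The median log2 change was −0.57. TNNI1 (ENSG00000159173), the inhibitory troponin subunit of slow and developing muscle, measured 252, 162, 36.3 and 137 CPM in control replicates 1 to 4 and 28.4, 16.3, 14.3 and 20.1 CPM in siG9a. The groups did not overlap, and in 3 of the pairs the siG9a library held less than 15% of its control. The log2 change was −2.58 ± 0.24 (SE), at limma adjusted p-values of 1.12e-07 paired and 0.0898 unpaired. TNNI2 (ENSG00000130598), its fast counterpart, measured 9.60, 7.90, 2.46 and 5.71 CPM in control replicates 1 to 4 and 0.520, 2.42, 0 and 2.29 CPM in siG9a. The groups did not overlap at these low counts of at most 14 reads. Its log2 change was −1.75 ± 0.43 (SE), at limma adjusted p-values of 0.00886 paired and 0.213 unpaired, and the call was lost with pair 1 left out. TNNT2 (ENSG00000118194), the cardiac troponin T that embryonic skeletal muscle also uses, measured 454, 350.00, 67.6 and 304 CPM in control replicates 1 to 4 and 69.6, 108, 42.8 and 76.8 CPM in siG9a. The highest siG9a library lay above control replicate 3 and below the other 3 controls. The log2 change was −1.75 ± 0.21 (SE), at limma adjusted p-values of 4.36e-06 paired and 0.203 unpaired. ACTC1 (ENSG00000159251), the cardiac actin that is the main sarcomeric actin of embryonic muscle, measured 880.2, 688, 87.3 and 1021 CPM in control replicates 1 to 4 and 321, 166, 19.4 and 365 CPM in siG9a. Each siG9a library held between 22.2% and 36.5% of its control, while the groups overlapped through control replicate 3. Its log2 change was −1.77 ± 0.15 (SE), at limma adjusted p-values of 2.46e-08 paired and 0.450 unpaired. The skeletal actin ACTA1, with at most 1 read in a library, and the fast troponin TNNT3 were under the filter.

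The other abundant thin filament transcripts did not pass the test. TNNT1 (ENSG00000105048), the slow troponin T and the most abundant of the 47 transcripts, measured 3244, 3107, 675 and 3112 CPM in control replicates 1 to 4 and 2608.5, 2337, 836 and 2581 CPM in siG9a. Both replicate 3 libraries lay well below the rest, and 3 of 4 pairs were lower (log2 change −0.17 ± 0.15 (SE), limma adjusted p 0.517 paired and 0.934 unpaired). TPM2 (ENSG00000198467), beta-tropomyosin, measured 759.5, 713, 129 and 509 CPM in control replicates 1 to 4 and 546, 655, 159 and 634 CPM in siG9a. It split 2 pairs against 2 (log2 change 0.00 ± 0.15 (SE), limma adjusted p 0.989 paired and 0.998 unpaired), with a sign that turns negative under median-ratio scaling (−0.01). TPM1 (ENSG00000140416), alpha-tropomyosin, measured 63.8, 69.9, 103 and 82.6 CPM in control replicates 1 to 4 and 60.4, 54.5, 51.4 and 60.8 CPM in siG9a. Its groups did not overlap, yet its adjusted p-values were 0.0955 paired and 0.402 unpaired (limma log2 change −0.47 ± 0.18 (SE)). TPM3 (ENSG00000143549) measured 92.5, 94.2, 99.6 and 76.3 CPM in control replicates 1 to 4 and 89.8, 107, 122 and 101 CPM in siG9a. It was the one tropomyosin with 3 of 4 pairs higher (log2 change 0.20 ± 0.16 (SE), limma adjusted p 0.455 paired and 0.723 unpaired). TPM1 and TPM3 also have non-muscle products, which 3′ reads do not set apart, and TPM3 has processed pseudogenes that can share its reads. NEB (ENSG00000183091), the ruler protein nebulin, measured 439, 393, 90.4 and 435 CPM in control replicates 1 to 4 and 309, 284, 108 and 296.5 CPM in siG9a. It was lower in 3 of 4 pairs and did not pass (log2 change −0.32 ± 0.15 (SE), limma adjusted p 0.188 paired and 0.853 unpaired). RIF1 overlaps NEB on the opposite strand, and the use of strand is not given in the sources used here. TNNC2 (ENSG00000101470), the calcium sensor of fast muscle, measured 25.4, 18.8, 7.99 and 17.1 CPM in control replicates 1 to 4 and 9.80, 15.7, 8.56 and 10.9 CPM in siG9a and was lower in 3 of 4 pairs (limma adjusted p 0.285 paired and 0.621 unpaired). The slow troponin TNNC1 had means of 1.67 CPM in control and 0.575 CPM in siG9a, and the pointed-end proteins LMOD3 and TMOD1 of 3.77 and 2.06 CPM and of 5.62 and 5.30 CPM. None of these 3 was called.

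Of the 9 Z-disc genes, 5 were tested and 1 fell (20%, beside 6.52% of all genes called lower). PDLIM3 (ENSG00000154553), an alpha-actinin-binding LIM protein, measured 106, 142, 67.0 and 172 CPM in control replicates 1 to 4 and 44.9, 67.8, 33.7 and 75.1 CPM in siG9a. Every siG9a library held between 42.2% and 50.3% of its control. The log2 change was −1.11 ± 0.16 (SE), at limma adjusted p-values of 7.26e-05 paired and 0.211 unpaired. TCAP (ENSG00000173991), which caps titin at the Z-disc, measured 15.1, 17.6, 6.76 and 15.1 CPM in control replicates 1 to 4 and 5.16, 15.7, 6.28 and 8.03 CPM in siG9a. It was lower in 4 of 4 pairs and did not pass (log2 change −0.62 ± 0.32 (SE), limma adjusted p 0.230 paired and 0.578 unpaired). ACTN2, the muscle alpha-actinin, had means of 5.58 and 2.98 CPM, MYOZ2 2.20 and 2.46 CPM, and CSRP3 1.31 and 1.82 CPM, and none of these passed. LDB3, XIRP1 and XIRP2 were under the filter and NRAP was at 0 in all 8 libraries.

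Neither titin nor the M-band genes passed the test in either direction. TTN (ENSG00000155657), the giant spring that runs from Z-disc to M-band, measured 326, 219, 75.6 and 283.5 CPM in control replicates 1 to 4 and 460.1, 317, 139.9 and 192 CPM in siG9a. It was higher in 3 of 4 pairs and did not pass (log2 change 0.34 ± 0.18 (SE), limma adjusted p 0.230 paired and 0.823 unpaired). With pair 4 left out the change was 0.64 and the adjusted p 0.00867, and with control replicate 3 left out and no block it was −0.12. Several antisense genes overlap TTN, among them TTN-AS1 at a mean of 7.39 CPM. MYOM2 (ENSG00000036448), a myomesin that crosslinks thick filaments, measured 5.48, 10.3, 27.1 and 9.87 CPM in control replicates 1 to 4 and 12.4, 10.9, 10.8 and 24.7 CPM in siG9a. The highest library was control replicate 3 and the groups overlapped (log2 change 0.28 ± 0.34 (SE), limma adjusted p 0.673 paired and 0.862 unpaired). MYOM1 had means of 1.60 and 4.70 CPM and MYOM3 was under the filter. Among the assembly factors, KLHL41 (ENSG00000239474), a kelch protein that stabilises thin filaments, measured 154, 118, 33.2 and 155 CPM in control replicates 1 to 4 and 70.2, 72.0, 22.3 and 96.3 CPM in siG9a. It fell in the paired fit, with each library at 45.5% to 67.1% of its control, while the groups overlapped. Its log2 change was −0.77 ± 0.17 (SE), at limma adjusted p-values of 0.00354 paired and 0.586 unpaired. SMYD1 (ENSG00000115593), a muscle methyltransferase that helps myosin assembly, was the gene whose siG9a values all lay above control. It measured 1.37, 1.22, 0 and 0.520 CPM in control replicates 1 to 4 and 2.06, 1.82, 2.28 and 2.87 CPM in siG9a, which is 5 reads or fewer in each library, and did not pass (limma adjusted p 0.196 paired and 0.388 unpaired). The myosin chaperone UNC45B and creatine kinase CKM were under the filter.

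The isoform counts that follow stand beside 6.52% of all genes called lower in the paired fit. Grouped by isoform, 3 of the 5 embryonic genes (MYL4, ACTC1 and TNNT2) fell, and all 5 were tested with a median log2 change of −1.75. Summed, the embryonic genes held 1427, 1110.2, 174 and 1401 CPM in control and 399, 283, 69.1 and 462 CPM in siG9a. Each siG9a library held between 25.5% and 39.7% of its control. Of 8 fast genes, 5 were tested and 3 fell (MYLPF, MYBPC2 and TNNI2), with a median of −1.46. Without pair 1 the paired fit called 0 of the fast genes. DESeq2 with the block called 1, MYLPF (beside 4.19% of all genes lower), and gave no adjusted p to MYBPC2 and TNNI2. Their sums were 103, 68.1, 25.2 and 54.0 CPM in control and 22.7, 41.1, 14.8 and 24.7 CPM in siG9a. Of 12 slow genes, 8 were tested and 2 fell (MYL6B and TNNI1), with a median of −0.39. Their sums, set mostly by TNNT1, were 4079, 3785, 979 and 3649 CPM in control and 2891, 2609, 1082 and 2846 CPM in siG9a, and pair 3 was at 111% of control. With both replicate 3 libraries left out and no block, 3 embryonic, 2 slow and 1 fast gene were called, beside 1.95% of all genes lower. Differences between the isoform classes were not tested.

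Ratios between related genes within a library cancel the library's total, apart from the 1 CPM added here, which weighs most on low genes. They were computed for the 10 pairs of troponin subunits, essential light chains and tropomyosins with a mean of at least 10 CPM, as log2 ratios of CPM + 1. The slow over cardiac troponin T ratio, TNNT1 over TNNT2, was 2.84, 3.15, 3.30 and 3.35 in control and 5.21, 4.42, 4.26 and 5.05 in siG9a. The groups did not overlap, and the difference was 1.57 (3.16 ± 0.23 against 4.73 ± 0.47, SD, n = 4 each). TNNI1 over TNNT1 was −3.68, −4.26, −4.18 and −4.50 in control and −6.47, −7.07, −5.78 and −6.94 in siG9a, a difference of −2.41. MYL4 over MYL6B was −2.61, −2.84, −3.79 and −2.47 in control and −5.45, −5.38, −6.11 and −4.39 in siG9a, a difference of −2.41. For these 3 ratios, without the replicate 3 libraries, the difference was 1.78, −2.68 and −2.44. Non-overlapping groups were also found for TNNC2 over TNNI1 (difference 2.07), TNNC2 over TNNT2 (1.23), TNNI1 over TNNT2 (−0.84) and TPM1 over TPM3 (−0.67). In TNNC2 over TNNT1 (−0.34), TPM1 over TPM2 (−0.47) and TPM2 over TPM3 (−0.20) the groups overlapped. MYL4 reached 10 CPM only through control, and its siG9a ratios rest on 1 to 10 reads. The ratios are a description with no test, since they were chosen after the values had been seen. The 10 ratios share genes and are not independent. A ratio does not show which of its 2 genes moved.

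**Figure D4:**
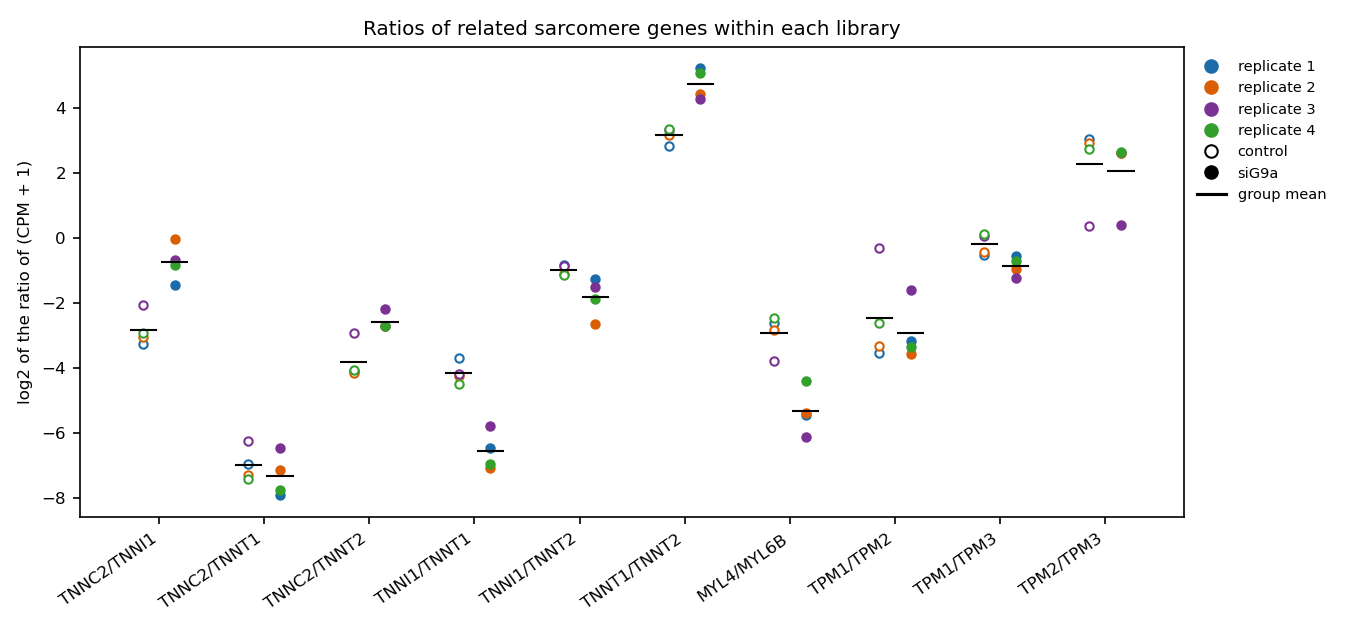
Log2 ratio of (CPM + 1) of 10 pairs of related sarcomere genes within each library. Open points are control, filled points siG9a, colours mark the replicate number and bars are group means. In 7 of the 10 ratios the 4 siG9a points lie apart from the 4 control points, and TPM2/TPM3 instead parts replicate 3 from the rest.

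Both replicate 3 libraries held low levels of many sarcomere transcripts. In control, replicate 3 held 10.1% of the mean of the other 3 libraries for ACTC1, 17.4% for MYL4, 19.5% for TPM2, 21.4% for TNNT1, 21.4% for NEB and 27.4% for TTN. In siG9a the same shares were 6.83%, 15.9%, 26.0%, 33.3%, 36.4% and 43.3%. TPM2, TNNT1, NEB and TTN were thus low in replicate 3 of both groups and did not pass the knockdown comparison, whereas ACTC1 and MYL4 were low in replicate 3 and also fell with knockdown. TPM3, at 114% and 123%, was not low in either, nor was TMOD1, at 404% and 253% (at most 21 reads). In control, MYOM2 stood at 316%, ACTN2 at 168% and TPM1 at 143%. In siG9a they stood at 67.9%, 71.1% and 87.8%. PDLIM3 stood at 47.9% and 53.8%. In bulk RNA, fewer cells with a muscle programme and less RNA per such cell cannot be told apart.

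Other genes of the contractile apparatus were examined through lists outside the 47. Of 33 further sarcomere genes, 16 were tested, 4 fell and 0 rose in the paired fit (25.0% lower, beside 6.52% of all genes), with a median log2 change of −0.62. The number that fell was 3 without pair 1, 2 without pair 2, and 5 without pair 3 or pair 4. The 4 were KLHL40, a partner of LMOD3 and relative of KLHL41 (5.73 to 0.417 CPM), the Z-disc protein SYNPO2L (70.6 to 25.1 CPM), OBSL1, a relative of obscurin (69.1 to 31.0 CPM), and the muscle filamin FLNC (126 to 75.7 CPM). On the log2 scale they changed by −2.19, −1.75, −0.98 and −0.67, at limma adjusted p-values of 0.00163, 9.32e-05, 0.00319 and 0.0144 paired, and unpaired none was under 0.05. KLHL40 passed the 1 CPM filter only through the control libraries, and its siG9a libraries held 1, 0, 0 and 2 reads. Of 20 non-muscle actomyosin genes, 19 were tested, with a median of 0.13. In the paired fit 1 fell (5.26%, beside 6.52% of all genes called lower) and 4 rose (beside 4.86% of all genes called higher). The one that fell was CFL1, cofilin, which severs actin filaments (385 to 185 CPM, limma adjusted p 2.39e-05 paired and 0.0898 unpaired). The 4 that rose were the cytoplasmic actin ACTG1 (1238 to 1921 CPM), the non-muscle regulatory light chains MYL12A (118 to 176 CPM) and MYL12B (289.6 to 423 CPM), and the actin capping subunit CAPZB (74.7 to 118 CPM). Their limma adjusted p were 0.0142, 0.0225, 0.0182 and 0.0154 with the block and none was under 0.05 without it. The number that rose was 1 without pair 1, 1 without pair 2, 3 without pair 3 and 2 without pair 4.

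Among 12 factors that direct the muscle programme, 10 were tested, with a median log2 change of 0.03. SRF, which binds the CArG box, rose from 49.8 ± 24.5 to 100.5 ± 43.3 CPM (SD, n = 4 each; limma adjusted p 0.00369 paired and 0.300 unpaired). MYOD1 had a log2 change of −0.03 and MYOG of −0.65, and neither passed. Markers of other cell types are given beside the 6.52% of all genes called lower. Of 8 smooth muscle markers, 5 were tested and 1 (20%) fell, DES, which skeletal muscle also expresses (188.5 to 63.8 CPM), while ACTG2, MYH11 and LMOD1 were under the filter. Of 9 fibroblast markers, 6 were tested and 2 (33.3%) fell, FBLN1 and COL1A1, while 2 had positive changes. COL1A1 stood at 117% of control in pair 4 (limma adjusted p 0.0410 paired and 0.414 unpaired). Of 7 epithelial markers, 5 were tested, with a median log2 change of 0.27. Of these 1 (20%) fell, CDH1, while the other 4 had positive changes and 0 were called higher. Of 8 neural markers 4 were tested and 0 were called with the block or without it. The smooth muscle list summed to between 68.2 and 286 CPM in control and between 38.2 and 205 CPM in siG9a, the fibroblast list to between 154 and 481 CPM in control and between 63.9 and 353 CPM in siG9a and the epithelial list to between 12.3 and 76.2 CPM in control and between 24.6 and 44.5 CPM in siG9a. The part of these cell types in the sarcomere values was not tested. Of the 10 muscle and rhabdomyosarcoma markers, 8 were tested and 4 (50%) fell, namely DES, CHRNA1, CDH15 and FGFR4. Without a block, limma called 0 genes of each of these marker lists. Its unpaired adjusted p was 0.300 for DES, 0.359 for CHRNA1 and 0.508 for CDH15.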

How the data were processed

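RNA of 4 control and 4 siG9a libraries of Rh41 was made into QuantSeq 3′ mRNA libraries and sequenced single-end on a NextSeq500, per the labels' protocols. The submitters' processing notes name FastQC 0.11.8, Trim Galore, STAR 2.5.0a, HTSeq 0.8.0 and edgeR 3.28, and the builds GRCh38 and hg19, without roles; strand, UMIs and annotation are not given in the sources used here, and no gene coordinates are printed. The authors deposited CPM to 2 decimals. In each library 100% of values were whole multiples of 1 read (within 0.006 CPM), so reads were recovered.

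Genes whose mean over the 8 libraries reached 1 CPM were tested with limma 3.58.1 in R 4.3.3 (eBayes with trend, log2(CPM + 1), two-sided, Benjamini-Hochberg, threshold 0.05), without and with the replicate number as a block. The pseudocount understates changes of low genes. The pairing comes from the numbers in the sample titles. Deviations of same-numbered libraries from their group means correlated across genes by 0.500, 0.104, 0.673 and 0.130 for numbers 1 to 4, each over 0.1, so the blocked values are printed. Different numbers gave −0.516 to 0.144, and control 2 correlated more with siG9a 4 (0.144) than with siG9a 2. On the recovered reads, edgeR 4.0.16 called 0 genes unpaired and 1711 paired, and DESeq2 1.42.0 called 291 unpaired and 969 paired. On simulated data for siG9a against control (14774 genes, 200 changed by 1.5 in log2, paired by construction) limma recovered 99.5% with the block and 39.0% without. Same-numbered libraries were given a common mean, so this gain from the block was built in. The changed genes were drawn from those at a mean of at least 10 CPM, and the dispersion was an assumed value. The simulation therefore cannot show whether the real libraries are paired.

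The 47 genes and all lists were chosen with earlier results of these data known. Genes given in every library are those with a mean of at least 10 CPM, a call in either fit, or groups that do not overlap. Other lists give counts, at most the 3 smallest p-values, and up to 5 counted genes. A result from the list of myogenic factors is not reported here. Alternatives were other pseudocounts, filters and scaling, edgeR, DESeq2 and leaving out libraries or pairs. The ratios and the block with median-ratio scaling were added after the data were seen. Promoters are from RefSeq (GRCh38.p14), overlaps between genes from GENCODE 29.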

Additional observations from a re-analysis of the deposited data

Results flagged for a closer look

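Dixon's ratio compared the extreme library of each group with the other 3 for the 22 genes given in every library, EHMT2, the sum over the 47 genes and the 10 ratios. It passed its 95% limit in 11 of 68 groups, and 10 of the 11 were replicate 3 libraries. Chance alone flags about 1 in 20 groups, and these are not independent. TNNT1 was low in control replicate 3 at 675 CPM (others 3107 to 3244) and in siG9a replicate 3 at 836 CPM (others 2337 to 2608.5). NEB was low in the same libraries, at 90.4 CPM (others 393 to 439) and 108 CPM (others 284 to 309). The sum over the 47 genes was 1749 CPM in control replicate 3 (others 6687 to 7525) and 1717 CPM in siG9a replicate 3 (others 4433 to 4838). The log2 ratio of TPM2 over TPM3 was 0.37 in control replicate 3 (others 2.72 to 3.02) and 0.39 in siG9a replicate 3 (others 2.59 to 2.64). That of TNNC2 over TNNT2 was high there, at −2.93 in control (others −4.14 to −4.07) and −2.20 in siG9a (others −2.71 to −2.71). MYOM2 was high in siG9a replicate 4 at 24.7 CPM (others 10.8 to 12.4).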

How the results depend on the processing

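The replicate block changed the calls of 11 sarcomere genes. Without a block, 0 sarcomere genes were called lower and 0 genes of the whole table were called, and with it 11 and 1717. The log2 changes are the same in both fits by design, since each replicate number has 1 library in each group. Under the block with median-ratio scaling the counts were 11 and 1694, with edgeR and the block 11 and 1711, with DESeq2 7 and 291, and with DESeq2 and the block 9 and 969. Without the filter, and without a block, they were 2 and 18, and with both replicate 3 libraries left out 8 and 413. Leaving out 1 library in turn without a block gave 0 to 6 sarcomere genes and 0 to 300 genes in all, the highest without control replicate 3. Leaving out pair 1, 2, 3 or 4 from the blocked fit gave 8, 11, 11 and 10 sarcomere genes and 951, 668, 1078 and 1393 genes in all, and without pair 4, 1 sarcomere gene, TTN, was called higher. The log2 change of EHMT2 was −1.10 without and with the block, with a limma adjusted p of 0.191 without it. It was −1.11 with median-ratio scaling added to the block, −1.09 with edgeR and −1.12 with DESeq2. Without pair 1, 2, 3 or 4 it was −0.96, −1.16, −1.01 and −1.27 in the blocked fit, past the threshold each time. Sarcomere genes whose groups did not overlap, lower in siG9a, were 16 with both replicate 3 libraries left out. With 1 library left out they were 8 to 16. Groups with fewer libraries part more easily by chance, and the matching share of all genes is not given here. These counts are therefore not comparable with the count from all libraries.

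Some signs turned, for genes that were not called without a block. TPM2 was −0.0058 under median-ratio scaling with or without the block, −0.094 with both replicate 3 libraries left out, paired or not, −0.092 with edgeR, −0.0051 with edgeR and the block, −0.099 with DESeq2 and −0.011 with DESeq2 and the block. It was −0.099 and MYOM2 −0.043 in the blocked fit without pair 4. With 1 library left out and no block, TPM2 ranged from −0.58 to 0.49, TNNT1 from −0.73 to 0.22, MYOM2 from −0.028 to 0.68, TTN from −0.12 to 0.62 and NEB from −0.87 to 0.044. The median of the Z-disc genes was 0.020 without the filter, where more genes were counted. The cause of these changes was not tested. Other pseudocounts, a filter of 5 CPM and median-ratio scaling without a block left the number of sarcomere genes called at 0. Low genes were limited by depth, at 1 read for 0.516 to 0.685 CPM.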
